A study of Homo sapiens with 2 samples.

Results

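The genes described here are 10 members of the RB pathway, taken from the deposited expression table by gene symbol: the CDK inhibitors CDKN2A, CDKN2B, CDKN2C, CDKN1B and CDKN1C, the pocket protein genes RB1, RBL1 and RBL2, and the D cyclins CCND1 and CCND2. They are 10 of the 21382 genes in the table. Expression was measured by RNA-Seq in cultures of MDA PCa 2b cells and of RC77 T/E cells, both untreated, established human lines labelled as prostate cancer, with 1 library of total RNA per line. MDA PCa 2b came from a bone metastasis and was grown in a modified Ham's F-12 medium with 20% fetal bovine serum, cholera toxin at 25 ng/ml, epidermal growth factor at 10 ng/ml, insulin at 5 ug/ml and hydrocortisone. RC77 T/E was grown in a serum-free keratinocyte medium with epidermal growth factor and pituitary extract, whose amounts are not given. As background from outside the labels, RC77 T/E is a primary tumor line immortalized with the E6 and E7 genes of human papillomavirus. Viral transcripts were not analysed here. Cell line, culture medium and these viral genes cannot be told apart in this design. No value has a replicate error, and no test was made between the lines.

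The RB pathway decides whether a cell leaves G1 and copies its DNA. D cyclins bind and activate the kinases CDK4 and CDK6, which phosphorylate the pocket proteins and so free the E2F transcription factors that the pocket proteins restrain. The INK4 inhibitors bind CDK4 and CDK6 themselves, whereas the CIP/KIP inhibitors act on complexes of cyclin and CDK, above all those with CDK2. Many cancers lose RB or INK4 function or gain D cyclin. The E7 protein of high-risk papillomaviruses binds the pocket proteins, and cells without working RB are known for abundant p16, the main product of CDKN2A.

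Expression is given as TPM, a measure of transcript abundance corrected for gene length and scaled to the same total in every library. Read numbers cannot be recovered from it, and sequencing depth and counting precision are therefore unknown. Many deposited values had lost their decimal mark, which was put back from the deposited mean and standard error of both lines. For CDKN2A, CDKN2B, CDKN1C and CCND2 a single position fitted. For the other 6 members more than 1 position fitted, so their levels are given as 2 or 3 values that differ by factors of 10 while the ratio between the lines is the same at each. Log2 ratios set RC77 T/E over MDA PCa 2b after adding 1 TPM to both, at the lowest position, and they understate the change of low genes. Because the lines are bulk cultures, fewer cells with a transcript and less RNA per cell cannot be told apart.

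At a level of 1 TPM, all 10 members were expressed in RC77 T/E cells, against 7 in MDA PCa 2b. In both lines together, 7 members reached this level, beside 9767 of the 21382 genes in the table. The share of all genes at this level was not counted for each line alone. The members below this level in MDA PCa 2b were CDKN2B, CDKN1C and CCND2. At the lowest positions, a log2 ratio past 2-fold in either direction was found for 7 of the 10 members, against 39.3% of the 11624 genes whose mean over the lines reached 1 TPM. Of these, 6 were higher in RC77 T/E cells, where the share over all genes was 19.4%, and 1 was lower, where it was 20%. The median log2 ratio of the members was 1.63, beside -0.15 over all 11624 genes, and centring on the latter raises every log2 ratio by its size. CDKN2B, CDKN1C and CCND2 reached the mean of 1 TPM only through RC77 T/E cells and therefore had to differ. They also raise the median of the members. Of the other 7, CDKN2A, RB1 and RBL1 had a log2 ratio above 0, and RBL2, CCND1, CDKN2C and CDKN1B below 0. The middle value of these 7 was that of RBL2, at -0.43, so the median of 1.63 does not describe them. Among the 7 members at 1 TPM or more in both lines, 4 passed 2-fold, against 29.6% of the 9767 such genes. CDKN2A, RB1 and RBL1 were higher in RC77 T/E (11.5% of all such genes) and CDKN1B was lower (18.1%). The members and the way of counting were chosen with results known, so these shares describe the list and do not test it.

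**Figure D1:**
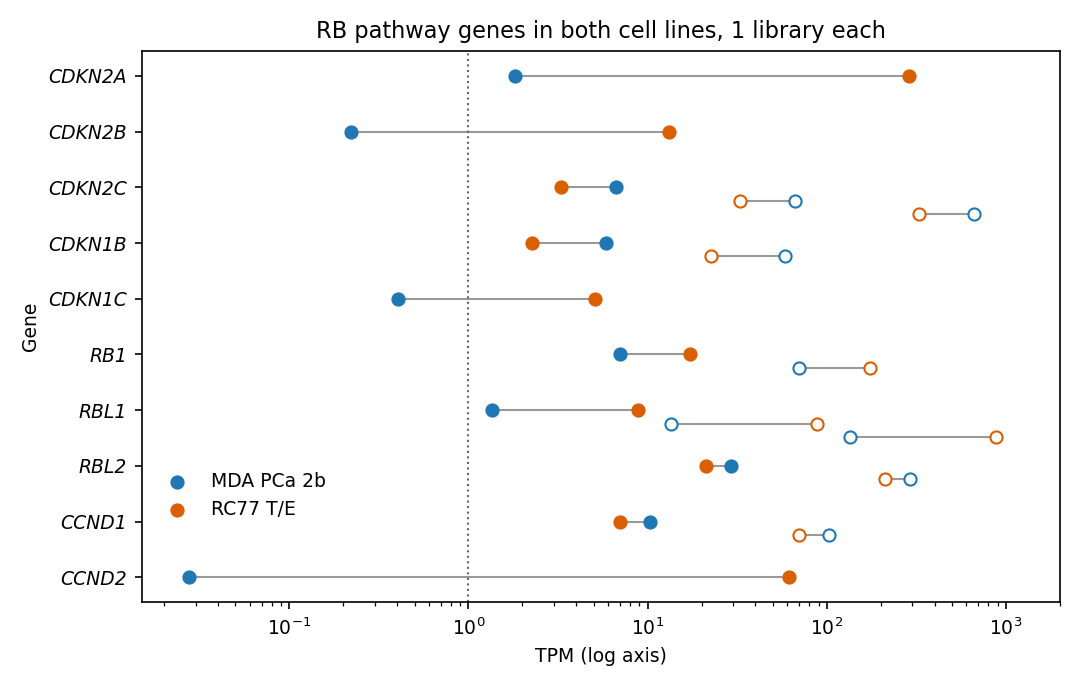
TPM (log axis) of each of the 10 members in the MDA PCa 2b library (blue) and the RC77 T/E library (orange), joined by a line; filled points are the lowest fitting position of the decimal mark, open points the higher positions, and the dotted line marks 1 TPM. CDKN2A, CDKN2B, CDKN1C and CCND2 have a single position and lie far to the right in RC77 T/E, while CDKN2C, CDKN1B, RBL2 and CCND1 lie to the left of their MDA PCa 2b values.

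CDKN2A (ENSG00000147889), which encodes the CDK4 and CDK6 inhibitor p16 and, from a separate first exon and reading frame, the p53 pathway activator ARF, is listed at chr9:21967752-21995301 on GRCh38. Its level was 286.8 TPM for RC77 T/E, compared with 1.81 TPM for MDA PCa 2b, a ratio of 158. It was the most abundant of the members with a single position in both lines. In RC77 T/E cells 209 of the 21382 genes had a higher level with the other decimal marks at their lowest and 2072 at their highest, and in MDA PCa 2b 9833 and 10138. Its log2 ratio of 6.68 was above that of 99.3% of the expressed genes, with 83 genes higher. The table has 1 value for the whole locus, so transcripts of p16 and ARF cannot be told apart.

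CDKN2B (ENSG00000147883), which encodes the INK4 inhibitor p15, a target of TGF-beta signaling, lies next to CDKN2A at chr9:22002903-22009305, with 7.6 kb between the loci. It was at 13.2 TPM in RC77 T/E against 0.221 TPM in MDA PCa 2b, a ratio of 59.6 and a log2 ratio of 3.54. Both neighbours were thus far higher in RC77 T/E. CDKN2A exceeded CDKN2B within each line, 21.8 times in RC77 T/E cells but 8.21 times in MDA PCa 2b. CDKN2A and CDKN2B are related in sequence. The processing notes name Salmon but not its settings for reads that match both. The much lower level of CDKN2B is therefore the less certain one.

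The antisense RNA CDKN2B-AS1, known as ANRIL, is transcribed in the opposite direction. Its start lies 1.2 kb inside the CDKN2A locus and it runs across the whole of CDKN2B. CDKN2B-AS1 was at 1.55 TPM for RC77 T/E, compared with 0.00613 TPM for MDA PCa 2b, a ratio of 254. Each of the 3 transcripts of the locus was therefore low in MDA PCa 2b and higher in RC77 T/E. The library kit keeps strand, but whether the authors' values use it is not stated, so reads of CDKN2B and its antisense partner may be mixed. MTAP, a gene of methionine salvage 30.1 kb from CDKN2A and often deleted together with it in tumors, was at 21.0 or 210.3 TPM in RC77 T/E against 9.28 or 92.8 TPM in MDA PCa 2b. Its ratio was 2.27, far below those of CDKN2A and CDKN2B. The plain ratio of CDKN2B-AS1 rests on a value near 0 in MDA PCa 2b, and its log2 ratio was 1.34, beside 1.10 for MTAP. CDKN2A and MTAP were both above 1 TPM in MDA PCa 2b, and DNA copy number was not measured here.

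**Figure D2:**
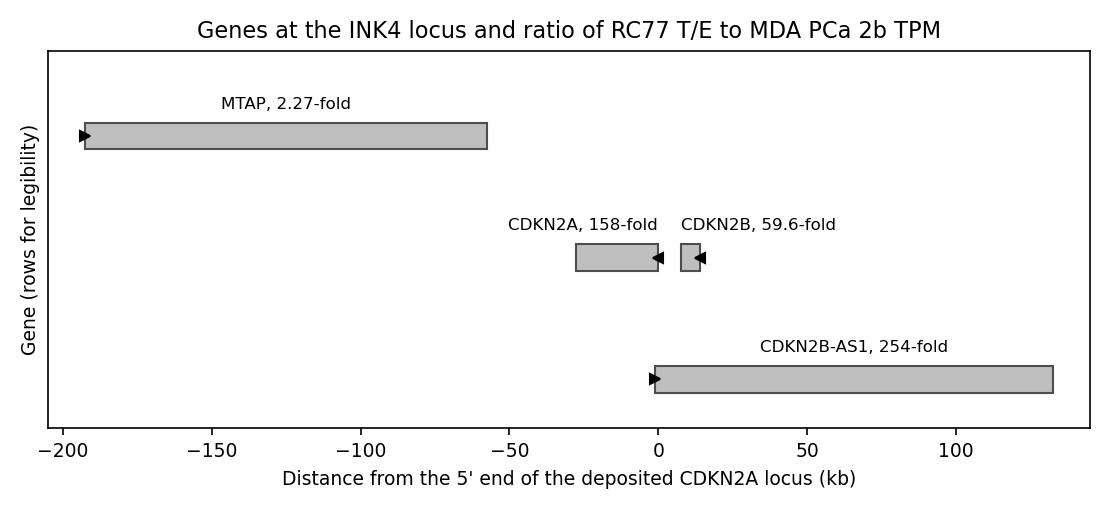
Map of the INK4 locus with distance in kb from the 5' end of the deposited CDKN2A locus on the x axis; bars span the deposited loci, placed on rows for legibility, and arrowheads mark the start and direction of transcription. The numbers are the TPM of RC77 T/E divided by that of MDA PCa 2b, 158 for CDKN2A, 59.6 for CDKN2B and 254 for CDKN2B-AS1, beside 2.27 for MTAP.

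The sequences in front of the CDKN2A and CDKN2B starts are shown because these neighbours differed together between the lines. They are the 250 bases before each start in RefSeq on GRCh38.p14, all on the minus strand, printed 5' to 3'. CDKN2A has a pair of starts, the upstream one giving ARF and the other, 20.4 kb inside the deposited locus, giving p16. The windows are chr9:21995325-21995574 for ARF, chr9:21974858-21975107 for p16 and chr9:22009306-22009555 for CDKN2B.
CDKN2A, ARF start: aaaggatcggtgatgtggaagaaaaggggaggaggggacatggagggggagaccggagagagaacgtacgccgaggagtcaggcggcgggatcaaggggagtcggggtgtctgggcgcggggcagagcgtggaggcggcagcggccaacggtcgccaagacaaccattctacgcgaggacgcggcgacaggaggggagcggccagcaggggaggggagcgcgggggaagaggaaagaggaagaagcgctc
CDKN2A, p16 start: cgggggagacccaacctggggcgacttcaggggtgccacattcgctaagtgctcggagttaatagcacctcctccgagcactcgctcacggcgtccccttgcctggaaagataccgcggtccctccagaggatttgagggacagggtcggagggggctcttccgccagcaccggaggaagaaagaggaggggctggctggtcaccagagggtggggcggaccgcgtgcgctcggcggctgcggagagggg
CDKN2B: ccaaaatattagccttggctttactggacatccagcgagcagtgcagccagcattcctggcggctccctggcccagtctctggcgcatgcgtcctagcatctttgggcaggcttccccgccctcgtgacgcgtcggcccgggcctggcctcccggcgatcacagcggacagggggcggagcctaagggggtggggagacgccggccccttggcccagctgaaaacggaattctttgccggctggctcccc
The windows hold 24, 20 and 18 CpG dinucleotides in this order, beside a median of 11 over the 35116 windows of this length in the RefSeq table. Methylation of these bases was not measured here. The 4 spellings of the E2F motif that were searched on both strands, TTTCGCGC, TTTGGCGC, TTTCCCGC and TTTGCCGC, occur in 2.79% of all windows and in none of these 3.

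CDKN2C (ENSG00000123080, chr1:50960745-50974634), which encodes the INK4 inhibitor p18, was not higher in RC77 T/E cells, unlike the other INK4 members. Its level was 3.29, 32.9 or 329 TPM for RC77 T/E, compared with 6.63, 66.3 or 663 TPM for MDA PCa 2b. The MDA PCa 2b level was thus 2.01 times that of RC77 T/E, a log2 ratio of -0.83 at the lowest position, short of 2-fold, and of -1.01 at the highest, past it. The call for CDKN2C therefore depends on its decimal mark. The remaining INK4 gene, CDKN2D (p19), had a ratio of 1.31 and a log2 ratio of 0.34.

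The CIP/KIP members differed in opposite directions. CDKN1B (ENSG00000111276, chr12:12685498-12722369), which encodes p27, a brake on CDK2 that accumulates in resting cells, was at 2.25 or 22.5 TPM in RC77 T/E against 5.85 or 58.5 TPM in MDA PCa 2b. The MDA PCa 2b level was 2.60 times that of RC77 T/E and the log2 ratio was -1.08, just past 2-fold. Centred on the median of all expressed genes it was -0.92, and scaled to the same upper quartile -0.96, so that the call ended and the members split into 6 higher and 0 lower. Of all 11624 expressed genes, 2250 were higher and 2324 lower before centring, and 2542 and 1880 after it. CDKN2B, CDKN1C and CCND2 are among the 6 and reached the mean of 1 TPM only through RC77 T/E. At the highest position, or with a pseudocount of 0.1 TPM, the log2 ratio of CDKN1B was -1.34 and the call stayed. The deposited locus begins 31.9 kb before the RefSeq start of CDKN1B and overlaps GPR19 on the opposite strand, which was at 1.14 TPM for RC77 T/E, compared with 0.214 TPM for MDA PCa 2b.

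CDKN1C (ENSG00000129757, chr11:2883213-2885775), which encodes p57, an inhibitor expressed from the maternal allele in many tissues, was at 5.09 TPM in RC77 T/E against 0.403 TPM in MDA PCa 2b. The ratio was 12.6 and the log2 ratio 2.12, above that of 90.9% of the expressed genes. The p53 target CDKN1A (p21), the other CIP/KIP gene, was at 10.7 or 106.8 TPM for RC77 T/E, compared with 6.21 or 62.1 TPM for MDA PCa 2b, short of 2-fold at a log2 ratio of 0.70.

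Of the pocket protein genes, RB1 and RBL1 were higher in RC77 T/E cells and RBL2 was not past 2-fold. RB1 (ENSG00000139687, chr13:48303744-48599436) encodes RB, which binds the activating E2F factors. It was at 17.4 or 173.6 TPM in RC77 T/E against 6.98 or 69.8 TPM in MDA PCa 2b, a ratio of 2.49 and a log2 ratio of 1.2. LPAR6 and RCBTB2 lie inside RB1 on the opposite strand, so unseparated reads of the strands would bear on its value. LPAR6 had a ratio of 1.69, below that of RB1, and RCBTB2 had 2.88 TPM for RC77 T/E, compared with 4.16 TPM for MDA PCa 2b, the other direction.

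RBL1 (ENSG00000080839, chr20:36996349-37095997) encodes p107, a pocket protein that binds the repressive E2F factors and whose own gene is a known E2F target in dividing cells. Its level was 8.85, 88.5 or 885 TPM in RC77 T/E against 1.36, 13.6 or 136 TPM in MDA PCa 2b. The ratio of 6.53 was the highest of the pocket proteins, with a log2 ratio of 2.06 at the lowest position and 2.70 at the highest. The RefSeq window of RBL1, chr20:37095998-37096247 on the minus strand, is shown because it was the only 1 of 11 windows, from 7 matched members, with an E2F spelling, marked in capitals.
RBL1: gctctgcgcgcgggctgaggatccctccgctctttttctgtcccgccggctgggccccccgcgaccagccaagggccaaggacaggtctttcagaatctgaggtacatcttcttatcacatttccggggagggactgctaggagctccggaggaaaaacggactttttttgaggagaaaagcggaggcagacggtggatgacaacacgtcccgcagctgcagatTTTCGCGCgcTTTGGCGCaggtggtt
The spellings TTTCGCGC and TTTGGCGC lie 26 to 19 and 16 to 9 bases before the start, on the strand of the gene. They occur in 0.439% and 0.55% of all 35116 windows. A match describes the letters and is not evidence of binding in these cells. The windows that were searched belong to CDKN2A, CDKN2B, CDKN2C, CDKN1B, RB1, RBL1 and RBL2, and that of RB1 starts 172.7 kb inside the gene, at an internal start.

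RBL2 (ENSG00000103479, chr16:53433977-53491648) encodes p130, the pocket protein of the DREAM complex in resting cells. It was at 21.3 or 213 TPM for RC77 T/E, compared with 29.1 or 291 TPM for MDA PCa 2b, higher in MDA PCa 2b by a ratio of 1.37. At the lowest positions it was the most abundant of the 3 pocket protein genes in both lines. RB1 and RBL1 thus stood higher relative to RBL2 in RC77 T/E cells, compared with MDA PCa 2b.

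Among the D cyclins, only CCND2 was at 1 TPM or more in a single line. CCND2 (ENSG00000118971, chr12:4269771-4305353), which encodes cyclin D2, was at 61.5 TPM in RC77 T/E against 0.0275 TPM in MDA PCa 2b. Its plain ratio of 2235 rests on a value near 0 in MDA PCa 2b, and its log2 ratio of 5.93 was above that of 99% of the expressed genes. In RC77 T/E cells 636 genes exceeded CCND2 with the other decimal marks at their lowest and 5926 at their highest. CCND1 (ENSG00000110092, chr11:69641156-69654474), which encodes cyclin D1, was at 7.0 or 70.0 TPM for RC77 T/E, compared with 10.3 or 103 TPM for MDA PCa 2b, higher in MDA PCa 2b by a ratio of 1.47. CCND3, the remaining D cyclin, was similar in both lines, at 35.8 or 358.2 TPM in RC77 T/E against 38.9 or 388.6 TPM in MDA PCa 2b. At every fitting position CCND2 was the least abundant D cyclin in MDA PCa 2b, below CCND1 and CCND3. In RC77 T/E cells its place among the D cyclins depends on the marks of CCND1 and CCND3.

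**Figure D3:**
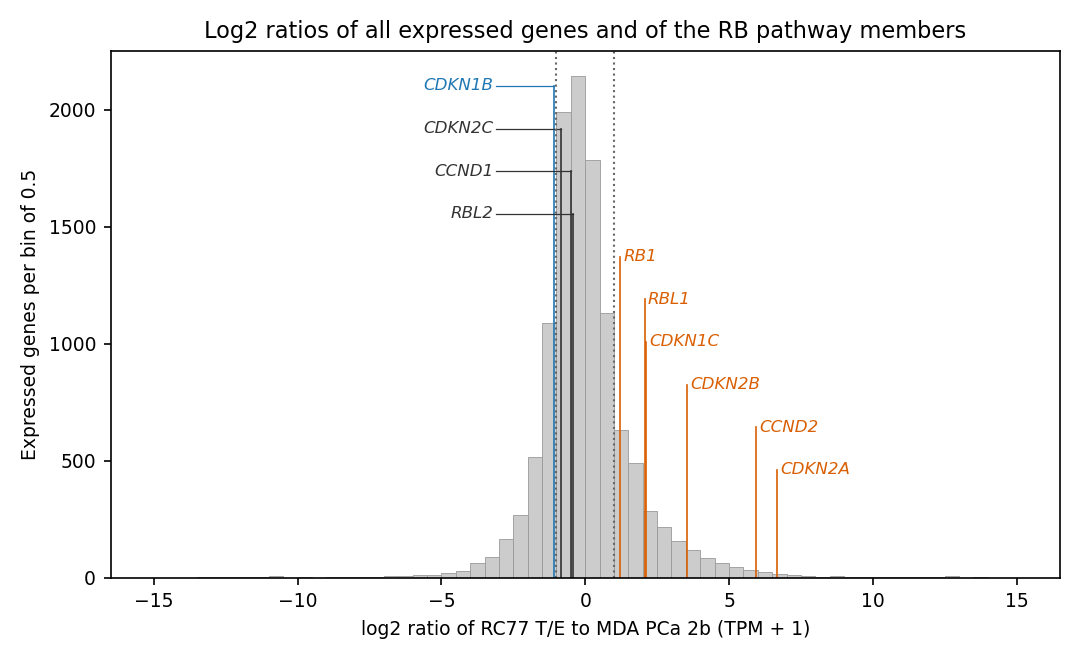
Number of expressed genes (11624 genes with a mean of 1 TPM or more) per bin of the log2 ratio (RC77 T/E over MDA PCa 2b, 1 TPM added to both), with the 10 members as vertical lines whose height only separates the labels; dotted lines mark 2-fold. CDKN2A at 6.68 and CCND2 at 5.93 lie in the far right tail, and CDKN1B at -1.08 lies just past the left line.

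The partners of the D cyclins differed as well. CDK6 was at 15.3 TPM for RC77 T/E, compared with 0.0132 TPM for MDA PCa 2b, a log2 ratio of 4.01. CDK4 was at 4.18 or 41.8 TPM in RC77 T/E against 12.0 or 119.5 TPM in MDA PCa 2b, higher in the latter by a ratio of 2.86, with a log2 ratio of -1.32. MDA PCa 2b cells thus had CDK4 with CCND1 and CCND3 above 1 TPM and CDK6 and CCND2 near 0, whereas RC77 T/E cells had all 5 above 1 TPM. In RC77 T/E, CDKN2A was 18.7 times as abundant as CDK6 and 4.66 times as abundant as CCND2, per length.

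The wider pathway was described by 62 other genes, of which 61, without CDKN2B-AS1, reached a mean of 1 TPM. They include 11 general proliferation genes, described again below, of which 4 were past 2-fold and higher in RC77 T/E. Past 2-fold, 16 of the 61 were higher in RC77 T/E cells, or 26.2% against 19.4% of all expressed genes, and 5 were lower, or 8.2% against 20%. In either direction this made 21 genes, or 34.4%, beside 39.3% of all expressed genes, and after centring it made 24, beside 38%. CDK6, E2F7 and E2F2 reached the mean through a single line. Among the 58 genes at 1 TPM or more in both lines, 14 were higher in RC77 T/E (24.1%, beside 11.5% of all such genes) and 4 lower (6.9%, beside 18.1%), together 31% beside 29.6%. The median log2 ratio of the 61 was 0.34, beside -0.15 over all expressed genes.

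Among the 13 kinases and partners, 5 were higher in RC77 T/E (38.5%, beside 19.4% of all expressed genes) and 1, CDK4, was lower (7.69%, beside 20%). CDK6 is among the 5 and had to differ, as it reached the mean through RC77 T/E alone. Beside CDK6, the higher genes were the S phase kinase CDK2 at a log2 ratio of 1.01, the mitotic kinase CDK1 at 1.39, and its cyclins CCNA2 at 1.43 and CCNB1 at 1.26. CDK7, which activates other CDKs, was short of 2-fold at 0.92 but past it after centring (1.07) and at the highest position (1.27). CCNE1 and CCNE2, the cyclins that activate CDK2 after RB is phosphorylated, had log2 ratios of 0.62 and -0.49, short of 2-fold. Of the 10 E2F and DP factors, 8 were short of 2-fold, where the share over all expressed genes was 60.7%. The other 2, E2F7 and E2F2, each reached the mean of 1 TPM through a single line. E2F7, a repressor of E2F targets, was at 7.35 TPM for RC77 T/E, compared with 0.841 TPM for MDA PCa 2b, a log2 ratio of 2.18. The activator E2F2 went the other way, at 0.316 TPM in RC77 T/E against 1.82 TPM in MDA PCa 2b, and its log2 ratio was -1.10, or -0.95 and short of 2-fold after centring. E2F1, an activator that RB binds, had a log2 ratio of 0.94 and was just short, but passed 2-fold at the highest position (1.03) and after centring (1.09).

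Of the 7 DREAM and MuvB subunits, which repress cell cycle genes with p130 or activate them with MYBL2 and FOXM1, LIN9 (1.03) and MYBL2 (1.35) were higher in RC77 T/E on the log2 scale. Of the 9 turnover genes, 4 were higher and 1 was lower. Of all expressed genes, 19.4% were higher and 20% lower. SKP2, which marks p27 for degradation, was at 23.3 TPM in RC77 T/E against 10.97 TPM in MDA PCa 2b, and its cofactor CKS1B had a ratio of 2.19. CDKN1B RNA was lower in RC77 T/E, with the limits given above. The p27 protein was not measured, and a link between SKP2 and CDKN1B was not tested. FBXW7, which removes cyclin E, and FBXO4, a cyclin D1 ligase subunit, had log2 ratios of 1.13 and 1.08, and the core subunit SKP1 had -1.26.

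Among 9 regulators of the INK4 locus, 8 had a mean of 1 TPM or more, and of these 2 were lower in RC77 T/E (25%, close to the 20% of all expressed genes) and 0 were higher, beside 19.4%. The remaining one, CDKN2B-AS1, was higher at a log2 ratio of 1.34. CBX7, a polycomb reader that represses CDKN2A, had a log2 ratio of -1.17, and ID1, an inhibitor of bHLH activators of CDKN2A, had -1.29. BMI1, another polycomb repressor of the locus, was higher in MDA PCa 2b by a ratio of 2.31, with a log2 ratio of -0.98 that was short of 2-fold at the lowest position and past it at the highest. EZH2, SUZ12 and EED, the core of the complex that methylates histone H3, had 0.40, -0.01 and 0.41. Their part in the level of CDKN2A was not tested.

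All 11 proliferation genes had a log2 ratio above 0, from 0.25 for MCM3 to 1.84 for MCM2, with a median of 0.91. Of all expressed genes 44.4% had a log2 ratio above 0. MCM2, TOP2A, RRM2 and MCM5 passed 2-fold (36.4%, beside 19.4% of all expressed genes) and the other 7 did not, although MKI67 (1.06) and TYMS (1.10) passed after centring. RRM2, a subunit of ribonucleotide reductase and E2F target, was at 34.4 TPM for RC77 T/E, compared with 14.9 TPM for MDA PCa 2b. Growth rate and cell cycle phase were not measured here.

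**Figure D4:**
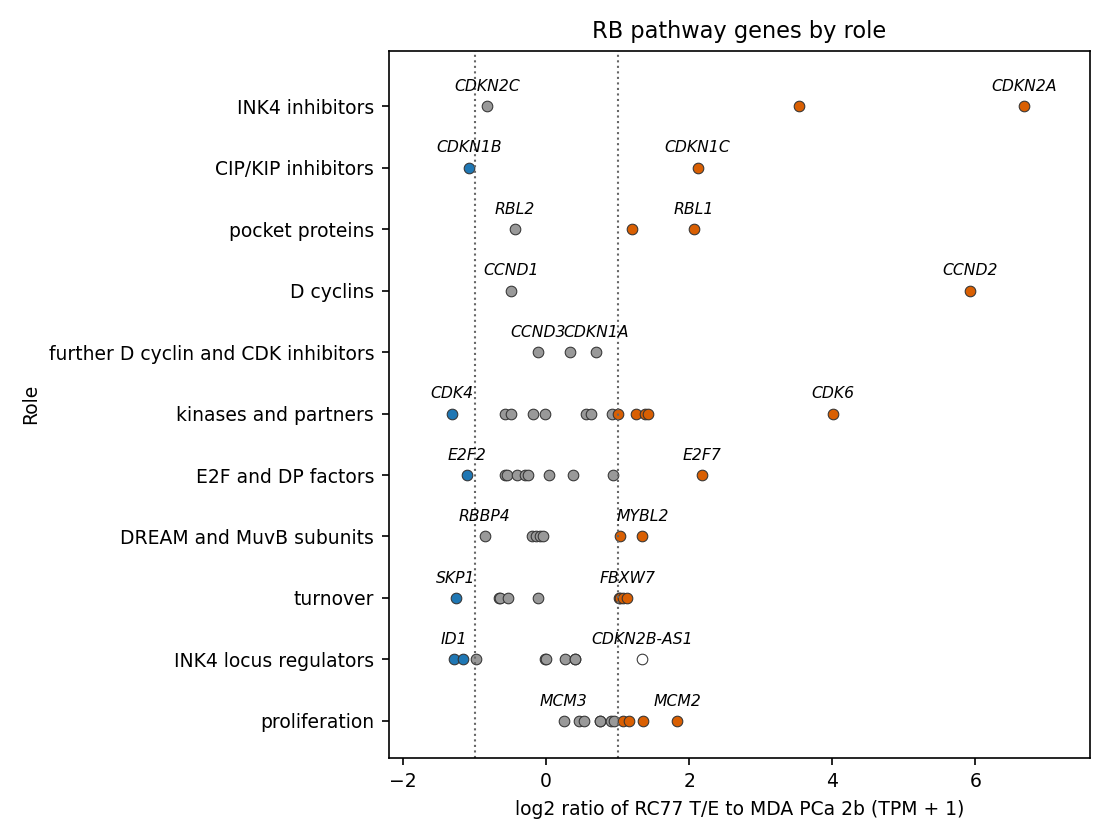
Log2 ratio (x axis, RC77 T/E over MDA PCa 2b, 1 TPM added to both) of each gene, with the 10 members on the upper 4 lines and the 62 other genes below by role; orange points are past 2-fold and higher in RC77 T/E, blue points past 2-fold and lower, grey points are not past 2-fold, the white point has a mean under 1 TPM, and dotted lines mark 2-fold. The lowest and the highest gene of each role are named, and CDKN2A, CCND2, CDK6 and CDKN2B (3.54, unnamed) lie above the rest.

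Markers of cell type differed as well. The 3 luminal prostate genes summed to 356.6 TPM in RC77 T/E against 5682 TPM in MDA PCa 2b at the lowest positions, with KRT18 the most abundant in the former and KLK3 in the latter. Only KLK3 of the 3 was past 2-fold. KLK3, which encodes prostate-specific antigen, is listed at 0 in RC77 T/E and was at 5323 TPM in MDA PCa 2b. The keratin KRT18 was at 324.8 TPM in RC77 T/E against 320.5 TPM in MDA PCa 2b, and KRT8 had a log2 ratio of -0.29. The 4 basal genes summed to 7559 TPM in RC77 T/E against 39.9 TPM in MDA PCa 2b, with KRT5 the most abundant in the former and KRT14 in the latter, and TP63 is listed at 0 in MDA PCa 2b. The part of these marker differences in the levels of CDKN2A, CDKN2B or CCND2 was not tested.

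Markers of other cell types were low. The 6 fibroblast genes summed to 9.22 TPM for RC77 T/E, compared with 2.77 TPM for MDA PCa 2b, led by COL1A1 at 8.24 TPM in the former and COL1A2 at 0.588 TPM in the latter, and COL3A1 and LUM are listed at 0 in RC77 T/E. The 3 leukocyte genes summed to 4.93 TPM in RC77 T/E against 0.0843 TPM in MDA PCa 2b, led in both lines by CD14, with CD3E listed at 0 in MDA PCa 2b and PTPRC at 0 in RC77 T/E. The 3 endothelial genes summed to 0.0214 TPM in RC77 T/E against 0.207 TPM in MDA PCa 2b, led by VWF, with PECAM1 listed at 0 in RC77 T/E. Of 10 genes that every cell uses, 7 were within 2-fold, beside 60.7% of all expressed genes. ACTB was higher in RC77 T/E at a log2 ratio of 1.26 and RPLP0 lower at -1.33. EEF1A1, a translation factor gene, is listed at 0 in MDA PCa 2b and was at 2393 TPM in RC77 T/E, so a gene listed at 0 in this table may be a failed estimate. None of the 10 members is listed at 0.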

How the data were processed

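Per the labels, paired-end directional libraries were made from total RNA of each line. The submitters' processing notes name CASAVA, FastQC 0.11.9, Trimmomatic 0.38, Salmon 1.2.0 and GRCh38, without order. The authors deposited TPM per locus with the mean and standard error of both lines. Values with commas, 11082 for RC77 T/E and 10361 for MDA PCa 2b, lack their decimal mark, although plain TPM had been assumed. Positions with 1 to 3 digits before and at least 3 after it were kept where the deposited mean and standard error came out as written. A single position fitted 16212 of 22704 loci. Summed TPM rose from 751124.9 at the lowest to 2416345.6 at the highest positions for MDA PCa 2b and from 682469 to 2140325.7 for RC77 T/E, so the marks of many loci are undetermined. Loci of a symbol were summed. Genes were those listed by role, neighbours within 100 kb and markers, less 2 luminal markers withheld from this report. Members and lists were chosen with earlier results of these data known. Of the 101 named genes, 101 start within 100 kb of their GENCODE release 29 position, which gave strands. Only 24 of them have the same ends there, and the distances and overlaps given here use the deposited ends. Python 3.11.15, numpy 2.4.6 and matplotlib 3.10.9 were used.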

Additional observations from a re-analysis of the deposited data

How the results depend on the processing

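With a pseudocount of 0.1 TPM, centring, upper-quartile scaling, the largest locus or the highest decimal positions, the fold behind 46 of 50 member log2 ratios changed by less than 1.5 times and 0 changed sign. The log2 ratios whose fold changed more were CDKN2B (5.37), CDKN1C (3.36) and CCND2 (8.92) with the pseudocount of 0.1 TPM, and RBL1 (2.70) at the highest positions. The count of members past 2-fold was between 6 and 8 in the alternatives set at the outset that kept this threshold. The share of all genes past 2-fold moved between 28.9% and 60% in these alternatives. Counts of 6 stood beside 38% and 38.4%, and counts of 8 beside 44% and 60%. The count of members was 4 among those at 1 TPM or more in both libraries, beside 29.6% of all such genes. That setting was chosen after seeing the data, and 3 members then leave the count. At 4-fold, also set at the outset, 5 members, 2 other RB pathway genes and 15.9% of all genes passed, as a stricter fold must lower each. Of these, CDKN2B, CDKN1C and CCND2, and the other pathway genes CDK6 and E2F7, reached the mean of 1 TPM only through RC77 T/E. Counts at 4-fold among genes at 1 TPM or more in both lines were not made. Commas read as digit grouping reversed the log2 ratios of CDKN1B (1.94), RB1 (-2.01) and CCND1 (2.77), left CDKN2A at 0.66, short of 2-fold, and gave 38 other RB pathway genes and 60% of all genes past 2-fold. That reading inflates a value by a factor set by its number of decimals. Counts of members at 1 TPM or more were within 1.5 times at 0.5 and 5 TPM. No paired analysis was possible because each line has 1 library. Values near 0, such as CCND2 in MDA PCa 2b, have no known limit of detection, since depth is unknown.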

Other observations

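Beside CDKN1C, which lies in an imprinted gene cluster, SLC22A18 was 6.21 times and PHLDA2, a growth-restraining imprinted gene, 2.58 times as abundant in RC77 T/E cells as in the other line, while the potassium channel gene KCNQ1 was at 0.0116 TPM for RC77 T/E, compared with 1.97 TPM for MDA PCa 2b. NAP1L4 in the same region was higher in MDA PCa 2b by a ratio of 1.23. AKTIP, which overlaps the end of RBL2 on the opposite strand, was at 6.86 or 68.6 TPM in RC77 T/E against 44.3 or 443.4 TPM in MDA PCa 2b, a log2 ratio of -2.53, beside -0.43 for RBL2. CREBL2, 40.4 kb from CDKN1B, was higher in MDA PCa 2b by a ratio of 3.12, and CDKN1B by 2.60, whereas APOLD1, 3.5 kb from CDKN1B, was higher in RC77 T/E by a ratio of 2.06. RPN2 and SAMHD1 beside RBL1 had log2 ratios of 0.44 and -0.20, beside 2.06 for RBL1. FGF19 next to CCND1 and FGF23 next to CCND2 were under 1 TPM in both lines.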
